A study of Mus musculus with 11 samples.

Results

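The 35 interferon response genes described here are genes that cells switch on when interferon reaches them. They come from a list of names, drawn up with earlier results of these data known, and all 35 were found among the 55421 genes of the 11 deposited count tables. All 35 also passed the filter on low counts that left 18125 genes for testing, with summed counts from 477 for Ifi44 to 11818 for Rsad2. The tables come from poly(A) RNA of articular cartilage, cut by scalpel from knees of 14-week-old C57BL/6 mice 4 weeks after surgery to destabilize the medial meniscus (DMM), a model of osteoarthritis. c-FosWT mice, with an intact Fos gene by their label, gave 4 libraries of the contralateral knee, which was not operated, and 3 of the DMM knee. The remaining 4 libraries are DMM knees of c-FosDCh mice, a label taken to mean that Fos is deleted in chondrocytes. The driver of that deletion is not given in the sources that were used. The 11 libraries come from 8 animals, since 3 c-FosWT animals gave both knees, and each library is treated as 1 sample. Contralateral knees of c-FosDCh mice were not analysed here, and what surgery did within that genotype was not tested.

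Interferons bind receptors at the cell surface, and the attached JAK kinases then phosphorylate STAT proteins. Type I and type III interferons lead to a complex with STAT2 and IRF9 that binds a promoter element called ISRE, while interferon gamma acts through an element called GAS. The target genes encode sensors of foreign RNA and DNA, enzymes that block viral replication, and regulators that amplify or damp the signal.

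The promoters are shown first, because the ISRE is an element that the pathway acts through and because its letters do not depend on the expression values. Since the genes were listed for their known response to interferon, a high share with an ISRE is not a result of these data. RefSeq promoter windows of GRCm38.p6, 250 bases before to 50 bases after the start of a gene, were matched for 25 of the 35 genes. Dhx58, Zbp1, Oas2, Mx1, Mx2, Ifi27l2a, Rtp4, Usp18, Parp9 and Parp14 were not matched. The ISRE-like letters searched were GAAA, 2 bases of any kind and GAAA again, on either strand, and they were present in 15 of the 25, or 60%, against 3.99% of all 27025 genes in the table. A longer form that ends in CT after the second GAAA, and so contains the first, was present in 9 of the 25 (36%) against 0.303%, and the GAS-like letters TTCNNNGAA in 6 of the 25 (24%) against 9.55%. The stretches below belong to genes whose levels are followed in the text, and the Ifit pair is shown because its copies are alike. Each is read 5′ to 3′ on the strand of its gene, with 15 bases on either side where the window allows. Capitals mark the matches on either strand, those on the opposite strand reading TTTC, 2 bases and TTTC, and overlapping matches run together.
Isg15: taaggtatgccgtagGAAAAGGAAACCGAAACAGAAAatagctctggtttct
Rsad2: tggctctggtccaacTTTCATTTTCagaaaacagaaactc
Oas3: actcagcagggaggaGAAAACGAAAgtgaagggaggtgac
Trim30a: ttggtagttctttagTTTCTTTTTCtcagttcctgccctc
Bst2: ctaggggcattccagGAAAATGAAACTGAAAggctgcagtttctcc
Gbp2: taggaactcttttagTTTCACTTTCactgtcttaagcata
Ifit3: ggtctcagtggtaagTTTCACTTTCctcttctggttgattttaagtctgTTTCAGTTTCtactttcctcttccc
Ifit3b: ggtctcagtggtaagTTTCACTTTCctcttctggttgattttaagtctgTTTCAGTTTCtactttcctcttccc
The stretch of Isg15 lies at chr4:156200860-156200911 on the minus strand, 93 to 42 bases before the start, and holds 3 overlapping matches. That of Rsad2 lies at chr12:26456548-26456587 and that of Oas3 at chr5:120777710-120777749, both on the minus strand with 1 match. Trim30a (chr7:104465205-104465244, minus strand) and Gbp2 (chr3:142620589-142620628, plus strand) also hold 1 match, and Bst2 (chr8:71537572-71537617, minus strand) holds 2. Ifit3 (chr19:34583358-34583431) and Ifit3b (chr19:34607754-34607827), both on the plus strand, hold 2 matches each, and their stretches are identical at 74 of 74 bases. Matches are descriptions of the letters and not evidence of binding.

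Gene counts per library ranged from 13593454 to 18280558. Levels below are CPM, counts scaled to a common library total after TMM normalization, ± is the SD over libraries for a level and the standard error (SE) for a log2 difference, and calls are at a Benjamini-Hochberg adjusted p under 0.05 over all genes tested. Bone marrow lies beneath the cartilage that is cut out, and the marrow content of a library was summarised as a marrow score, which averages the log2 CPM of 37 tested genes of red cell precursors and granulocytes. In replicate order it was 6.64, 5.94, 5.90 and 7.60 in the contralateral libraries, 7.53, 7.85 and 8.32 in those of c-FosWT DMM knees, and 6.91, 6.99, 5.58 and 3.42 in those of c-FosDCh DMM knees. Replicates 3 and 4 of the c-FosDCh group had the lowest scores of the 11 libraries, and replicate 4 stood far below the rest. Summed over their markers, erythroid genes ranged from 2470 to 7470 CPM in contralateral, 8650 to 14300 in c-FosWT DMM and 580 to 4890 in c-FosDCh DMM libraries, and 13 macrophage genes from 670 to 894, 825 to 1030 and 174 to 720 CPM. The 20 cartilage genes summed to 22900 to 44100, 6870 to 18800 and 23800 to 89100 CPM, so cartilage transcripts were abundant in all 11 libraries, and none of these erythroid, macrophage and cartilage genes was at 0 counts in any library. Fos itself, the gene named in the label, stood at 19.9 ± 4.26 (n = 4), 11.7 ± 2.58 (n = 3) and 23.2 ± 10 CPM (n = 4) in the 3 groups in the same order. The libraries labelled c-FosDCh did not have less of it (log2 difference from c-FosWT DMM 0.98 ± 0.35, edgeR adjusted p = 0.0736), and counts over the whole gene do not show whether a part of it was deleted.

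Across libraries the interferon response genes moved largely as a block. In c-FosWT DMM replicates 1 to 3, 31, 31 and 30 of the 35 genes lay above their mean contralateral log2 level, with median differences of 0.56, 0.62 and 0.51. Among the libraries labelled c-FosDCh the same count ran from 27 in replicate 1 and 10 in replicate 2 to 2 in replicate 3 and 0 in replicate 4, with medians of 0.21, -0.13, -1.04 and -1.98. The mean log2 CPM over the 35 genes was 3.55 to 3.88 in contralateral, 4.27 to 4.30 in c-FosWT DMM and 1.84 to 3.93 in c-FosDCh DMM libraries. A c-FosWT DMM library was the highest of the 11 for 31 of the 35 genes, against 37.6% of all genes tested. Replicate 4 of the c-FosDCh DMM libraries was the lowest for 34, against 28.5% of all genes tested. The c-FosDCh libraries thus spread far more than either c-FosWT group, in the order of their marrow scores except that replicates 1 and 2 change places. Fewer cells that express these genes and less of their RNA per cell cannot be told apart in bulk tissue.

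**Figure D1:**
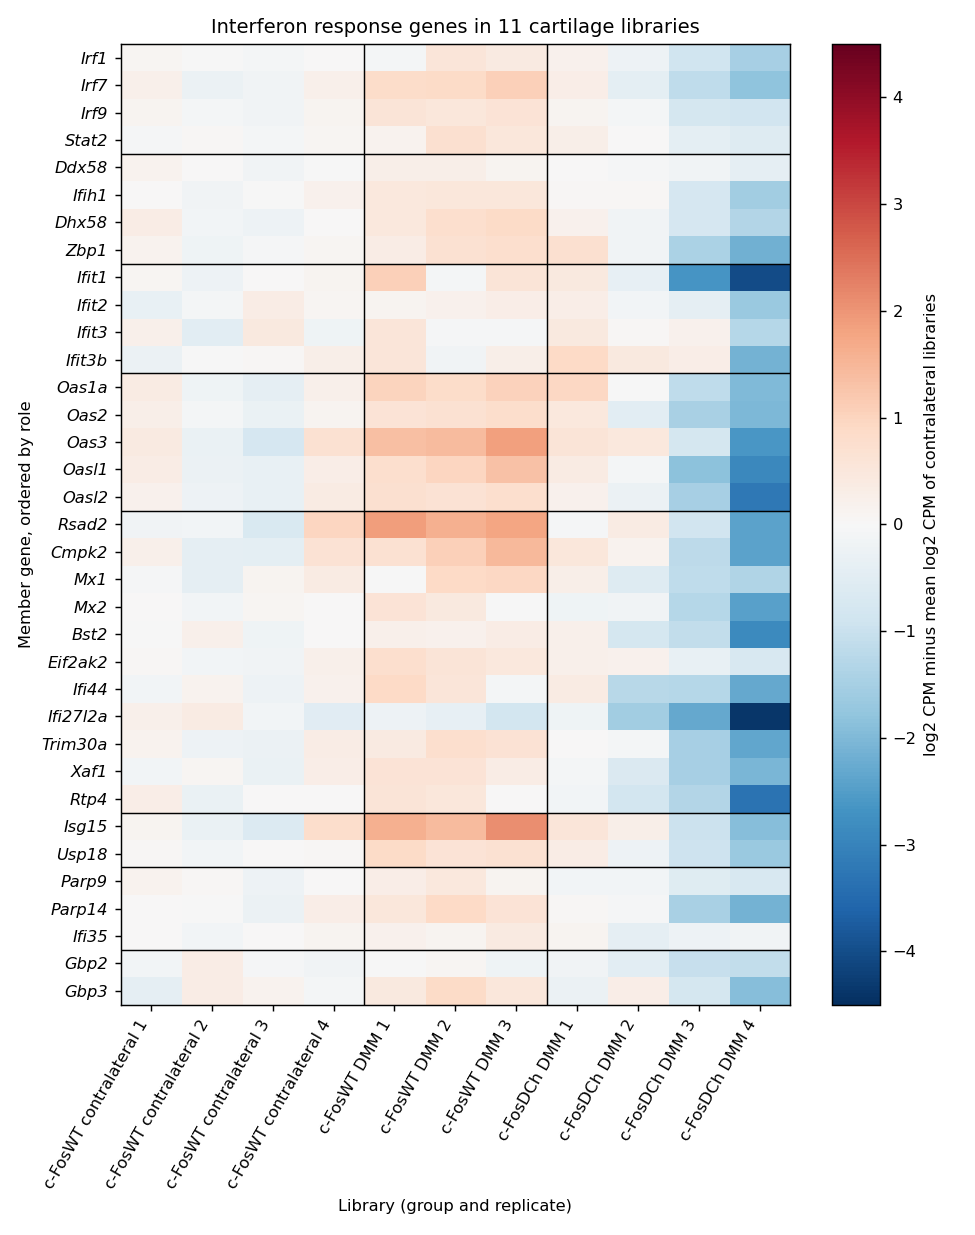
Difference in log2 CPM of each of the 35 genes (vertical axis, ordered by role) from its mean over the 4 contralateral libraries, for the 11 libraries (horizontal axis). Red is higher and blue is lower; the c-FosDCh DMM replicates 3 and 4 are blue for nearly all genes, with medians of -1.04 and -1.98.

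The first comparison, DMM against contralateral knees of c-FosWT mice, asks what changed with surgery. Isg15, a ubiquitin-like protein that is joined to other proteins during an interferon response, and Rsad2, which encodes viperin, an enzyme that makes a chain-terminating nucleotide, had the largest differences and the smallest p. Isg15 (ENSMUSG00000035692.7, chr4:156199424-156200818, minus strand) stood at 7.46, 5.50, 4.47 and 11.8 CPM in the contralateral libraries, 20.6, 18.4 and 29.3 CPM in those of c-FosWT DMM knees and 9.93, 8.195, 3.503 and 1.83 CPM in those of c-FosDCh DMM knees, each in replicate order. For Rsad2 (ENSMUSG00000020641.16, chr12:26442746-26456452, minus strand) the levels in the same order were 35.8, 36.2, 24.6 and 77.2 CPM, 145.5, 121 and 135 CPM and 38.0, 51.7, 21.7 and 7.545 CPM. In both genes all 3 c-FosWT DMM libraries were above every other library, and contralateral replicate 4, which has the highest marrow score of its group, was the highest contralateral library. The log2 difference was 1.64 ± 0.51 for Isg15 (edgeR adjusted p = 0.182) and 1.62 ± 0.54 for Rsad2 (edgeR adjusted p = 0.184). DESeq2 called these 2 genes higher (1.66 with adjusted p = 0.0369, and 1.64 with adjusted p = 0.047), beside 2.48% of all genes called higher and 3.57% called lower.

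Of the 35 genes, 33 had a higher fitted level in c-FosWT DMM knees and 2, Ifi27l2a and Gbp2, a lower one, where 49.1% of all genes had a higher one. The median log2 difference was 0.58, with a range from -0.49 to 1.64, and the median over all genes was -0.0097. The 3 c-FosWT DMM libraries lay above all 4 contralateral libraries for 20 of the 35 genes, against 10.1% of all genes, and below them for 0, against 13.1%. The 20 include all 5 OAS genes, both genes of the ISG15 system, 3 of 4 transcription factors and 3 of 4 sensors, but 0 of 4 IFIT genes. Compared knee with knee in the 3 animals that gave both, 28 of the 35 genes were higher in the DMM knee of all 3, against 21.8% of all genes, and 1, Ifi27l2a, was lower in all 3, against 24.4%.
No gene of the list was called by edgeR (0 of 35, with 0% of the 18125 genes called), while 8 of the 35 and 3605 of all genes had an unadjusted p under 0.05; limma-voom called 0 and DESeq2 called 902 genes. With each animal as a block over the 3 pairs, 0 genes were called and the median over the 35 was 0.52. The marrow score moved with this comparison: it was higher in the DMM knee of all 3 animals, by 0.89, 1.90 and 0.72. Its erythroid genes were higher by 1.72, 2.22 and 0.97 and its granulocyte genes by 0.02, 1.57 and 0.46. In the animal of DMM replicate 1 the rise was thus almost wholly erythroid, while the mean over the 35 genes rose there by 0.49. Of 20 cartilage genes, 17 had a lower fitted level (median -0.78) and 3 a higher one, beside 49.1% of all genes higher. The part of these markers in the result was not tested.

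**Figure D2:**
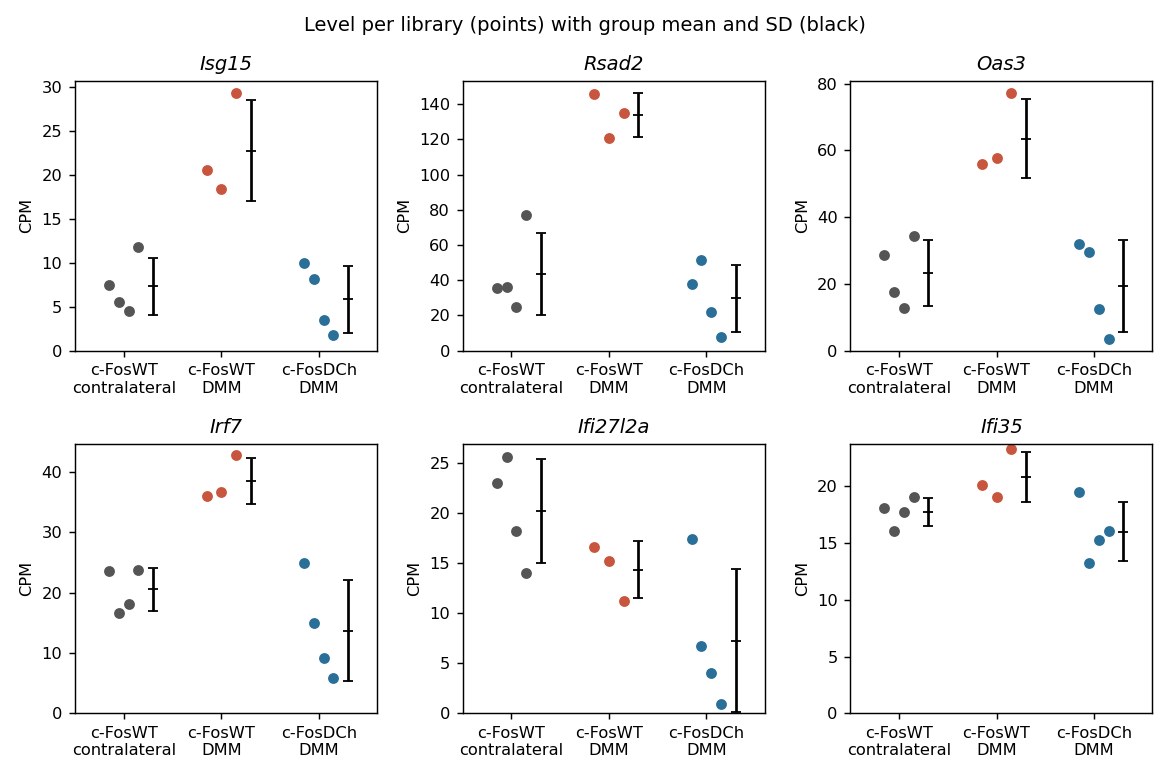
Levels of 6 of the genes in CPM (vertical axes, from 0) in each library (points) of the 3 groups (horizontal axes), with the group mean and SD in black. Isg15, Rsad2, Oas3 and Irf7 are highest in the 3 c-FosWT DMM libraries, Ifi27l2a is not, and the levels of Ifi35 lie closest together.

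The second comparison, libraries labelled c-FosDCh against c-FosWT among DMM knees, asks how the genotype label relates to the response after surgery. All 35 genes had a lower fitted level in the libraries labelled c-FosDCh, with a median log2 difference of -1.10 and a range from -2.17 to -0.03, against a median of -0.0089 over all genes, of which 49.5% had a higher fitted level. Of the 35, 8 were called lower by edgeR and 0 higher, where 3.79% of all genes were called lower and 10.6% higher. These 8 were Rsad2 (-2.17 ± 0.55), Isg15 (-1.95 ± 0.52), Irf7 (-1.49 ± 0.39), Xaf1 (-1.41 ± 0.38), Dhx58 (-1.10 ± 0.30), Irf9 (-0.90 ± 0.22), Eif2ak2 (-0.73 ± 0.21) and Parp9 (-0.65 ± 0.16), as log2 differences ± SE with edgeR adjusted p from 0.0349 to 0.0475. An unadjusted p under 0.05 was reached by 27 of the 35 and by 7074 of all 18125 genes. Markers of other cell types moved with this comparison: 19 of 19 erythroid (median -2.18), 13 of 13 macrophage (-1.02) and 11 of 11 endothelial genes (-1.04) had a lower fitted level, the erythroid genes without overlap. Of 20 cartilage genes, 15 had a higher fitted level and 5 a lower one (median 0.76). By edgeR 7 of the 20 were called higher and 0 lower. The part of all these markers in the result was not tested. The 4 libraries labelled c-FosDCh lay below the 3 c-FosWT DMM libraries for 21 of the 35 genes, against 15.8% of all genes, and above them for 0, against 17.2%. DESeq2 called 26 of the 35 lower, beside 13.3% of all genes, and limma-voom 24, beside 8.2%.
The calls depended on single libraries. Without c-FosDCh DMM replicates 3 and 4, 0 of the 35 and 0 of all genes were called, 33 of the 35 still had a lower fitted level, and the median was -0.57, with Rsad2 at -1.59 ± 0.43, Isg15 at -1.34 ± 0.40 and Irf7 at -0.97 ± 0.24 (lowest edgeR adjusted p 0.163). The count also fell to 0 of the 35 without either of these libraries alone, without c-FosWT DMM replicate 2 or 3, and without contralateral replicate 1 or 2, while it was 3 without contralateral replicate 3, 5 without c-FosWT DMM replicate 1, 16 without c-FosDCh replicate 2 and 31 without c-FosDCh replicate 1. In these last 4 fits 1355, 2122, 4626 and 4449 of all genes were called. Only in the remaining fit, without contralateral replicate 4, did the count of the list stay near the 8 of all libraries. This comparison and the first share the 3 c-FosWT DMM libraries, so their values are not independent.

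The third comparison sets DMM knees labelled c-FosDCh against contralateral c-FosWT knees, and so differs in genotype label and surgery together. By edgeR 0 of the 35 and 0% of all genes were called, with 4 of the 35 and 1512 of all genes at an unadjusted p under 0.05; limma-voom called 0 genes and DESeq2 41, 0 of them in the list. The fitted level was lower for 34 of the 35, the exception being Ifit3b, where 49.7% of all genes had a higher fitted level, and the median was -0.47. The libraries labelled c-FosDCh lay below all contralateral libraries for 2 genes, Mx2 and Gbp2, against 2.12% of all genes, and above them for 0, against 2.28%. The 2 smallest p belonged to Gbp2 (-0.65 ± 0.22, edgeR adjusted p = 0.584) and Xaf1 (-0.90 ± 0.35, edgeR adjusted p = 0.584). Isg15 and Rsad2, the genes that differed most in the first comparison, were at -0.32 ± 0.48 and -0.55 ± 0.51. With replicates 3 and 4 of the c-FosDCh group left out, the median over the 35 was 0.04, with 21 genes higher and 14 lower.

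Among the 4 transcription factors, Irf7, the factor that drives production of type I interferon, and Irf9, the DNA-binding part of the STAT complex, carried the calls. Irf7 (ENSMUSG00000025498.15, chr7:141262706-141266481, minus strand) was at 23.6, 16.7, 18.2 and 23.7 CPM in the contralateral, 36.0, 36.8 and 42.8 CPM in the c-FosWT DMM and 24.9, 14.9, 9.195 and 5.80 CPM in the c-FosDCh DMM libraries, again in replicate order, as in all values that follow. Irf9 (ENSMUSG00000002325.15, chr14:55603571-55610030, plus strand) was at 39.2, 33.6, 31.6 and 38.95, 53.1, 51.0 and 54.3 and 39.2, 33.5, 20.5 and 19.9 CPM. For both genes the 3 c-FosWT DMM libraries were the highest of the 11, and c-FosDCh replicates 3 and 4 were the lowest. Their differences between DMM and contralateral c-FosWT knees were 0.91 ± 0.38 and 0.56 ± 0.22 (edgeR adjusted p = 0.232 and 0.212). Stat2, the STAT protein particular to the type I and III pathway, had 40.2, 43.55, 39.7 and 43.95, 46.9, 68.8 and 59.3 and 50.2, 42.5, 30.7 and 28.0 CPM, and here c-FosDCh replicate 1 lay above the lowest c-FosWT DMM library. Irf1, a factor also induced by interferon gamma, had 40.9, 38.1, 36.3 and 38.95, 36.1, 56.3 and 51.4 and 44.6, 32.6, 20.8 and 13.7 CPM; its contralateral libraries lay close together, and the other groups overlapped them. Neither was called between the DMM groups (Stat2 -0.62 ± 0.20, edgeR adjusted p = 0.0577, and Irf1 -0.78 ± 0.32, edgeR adjusted p = 0.108).

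Of the 4 sensors, Ddx58 and Ifih1 detect viral RNA in the cytoplasm, Dhx58 regulates them, and Zbp1 binds unusual left-handed nucleic acid and can trigger cell death. Dhx58 was at 12.8, 9.28, 8.65 and 10.3, 14.2, 17.3 and 18.5 and 11.7, 9.18, 6.07 and 4.05 CPM, without overlap between c-FosWT DMM and either other group, and is the called gene of the 4 between the DMM groups (edgeR adjusted p = 0.0418). Zbp1 was at 6.705, 5.28, 5.79 and 6.33, 7.555, 9.73 and 10.1 and 9.86, 5.405, 2.25 and 1.35 CPM. Its level in c-FosDCh replicate 1 lay within the range of the c-FosWT DMM libraries, while that in replicate 4 was the lowest of all, and its difference between DMM groups was -0.95 ± 0.51 (edgeR adjusted p = 0.184). Ddx58 varied least of the 35 genes over the 11 libraries, 1.61-fold from the lowest to the highest.

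The IFIT proteins bind viral RNA that lacks the proper cap, and this family had the smallest median differences of the 8 role groups. Ifit1 had 5.45, 4.355, 5.25 and 5.64, 10.8, 4.81 and 7.79 and 7.01, 4.01, 0.813 and 0.318 CPM, a 34.1-fold span over the libraries that was the widest of the 35 genes. Its lowest level, in c-FosDCh replicate 4, rests on 4 counts, so the size of this span is uncertain. Ifit3 had 8.27, 4.998, 9.425 and 6.12, 10.2, 6.81 and 6.79 and 9.49, 7.265, 7.94 and 2.86 CPM, and Ifit3b 2.63, 3.07, 3.22 and 3.72, 4.63, 2.81 and 3.78 and 5.84, 4.24, 3.82 and 0.715 CPM. In all 3 genes the groups overlapped, and c-FosDCh replicate 4 was the lowest library. The median log2 difference of the 4 IFIT genes was 0.21 between the c-FosWT knees and -0.36 between the DMM groups, with lowest edgeR adjusted p of 0.638 and 0.182. Ifit3 and Ifit3b are close copies, as their promoter stretches show, and reads that map to several places were set aside in the deposited tables, so the split of counts between them is uncertain.

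The OAS genes encode enzymes that make short adenylate chains and so activate an RNase, with Oasl1 and Oasl2 as related proteins. This family had the largest median among those with more than 2 members, 0.92 between the c-FosWT knees and -1.43 between the DMM groups, although none of the 5 was called by edgeR in either (lowest adjusted p 0.224 and 0.071). Oas3 was at 28.6, 17.5, 12.65 and 34.5, 55.9, 57.6 and 77.1 and 31.9, 29.7, 12.45 and 3.495 CPM, and Oasl2 at 25.4, 18.8, 17.7 and 28.3, 36.6, 34.9 and 37.4 and 25.3, 18.4, 7.76 and 2.38 CPM. Both had their 3 highest values in the c-FosWT DMM libraries. Between the DMM groups Oas3 differed by -1.71 ± 0.60 (edgeR adjusted p = 0.071) and Oasl2 by -1.43 ± 0.56 (edgeR adjusted p = 0.094).

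Among the 11 other effectors, Cmpk2, a nucleotide kinase encoded beside Rsad2, was at 28.4, 18.35, 17.9 and 37.9, 38.9, 51.25 and 66.6 and 34.5, 27.4, 10.8 and 4.61 CPM. Trim30a, a ubiquitin ligase of the TRIM family, was at 35.9, 27.5, 26.8 and 41.2, 42.6, 54.2 and 50.6 and 32.4, 30.2, 11.4 and 6.43 CPM. In both, the c-FosWT DMM libraries lay above the rest, by a small margin over contralateral replicate 4. Xaf1, which promotes cell death by binding an apoptosis inhibitor, was at 7.39, 8.57, 6.56 and 9.74, 12.1, 12.25 and 10.1 and 7.52, 5.06, 2.815 and 1.91 CPM, with all libraries labelled c-FosDCh below all of c-FosWT DMM (edgeR adjusted p = 0.0394). Eif2ak2, the RNA-activated kinase that halts translation, was lower between the DMM groups as well (edgeR adjusted p = 0.0475), from a mean of 43.1 ± 4.51 (n = 3) to 26.0 ± 7.66 CPM (n = 4). Mx1, a GTPase against influenza viruses, was at 5.89, 4.57, 6.62 and 7.87, 6.09, 11.45 and 11.7 and 7.30, 4.13, 2.75 and 2.38 CPM. Bst2, or tetherin, which holds budding viruses at the cell surface, was at 10.8, 12.85, 9.60 and 11.1, 12.8, 12.5 and 14.1 and 12.9, 6.39, 5.07 and 1.51 CPM. For Mx1 and Bst2 a library labelled c-FosDCh, replicate 1, reached the lower c-FosWT DMM values, and neither gene was called (edgeR adjusted p = 0.0543 and 0.142 between the DMM groups). Ifi27l2a went its own way. At 23.0, 25.6, 18.2 and 14.0, 16.6, 15.2 and 11.2 and 17.4, 6.68, 4.00 and 0.953 CPM it had its 3 highest levels in contralateral libraries, and its difference between the c-FosWT knees was -0.49 ± 0.65 (edgeR adjusted p = 0.67). Per kilobase of exon it was the most abundant of the 35 in contralateral knees, with a mean of 43.6 RPKM, ahead of Bst2 at 12.3 RPKM.

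Usp18, the protease that removes Isg15 from proteins and damps receptor signalling, was at 6.58, 5.71, 6.38 and 6.44, 11.4, 9.62 and 10.1 and 7.81, 5.405, 3.315 and 1.99 CPM, with the c-FosWT DMM libraries above all others (-1.16 ± 0.35 between the DMM groups, edgeR adjusted p = 0.0511). Parp9, part of a ubiquitin ligase complex with Dtx3l, was at 33.15, 30.1, 25.3 and 29.4, 36.25, 40.6 and 31.6 and 26.9, 26.8, 20.3 and 17.95 CPM; only against the libraries labelled c-FosDCh did c-FosWT DMM not overlap. The exons of Parp9 and Dtx3l overlap on opposite strands over 458 bases, the longest such overlap among the 9 genes of the list that have one. The strand setting of the counting is not given in the sources used here. Reads in such overlaps may therefore have been set aside as ambiguous, a class of 0.62 to 0.94% of reads per library, or counted for the partner. Ifi35, a partner of interferon-induced signalling proteins, was at 18.05, 16.1, 17.7 and 19.1, 20.1, 19.1 and 23.25 and 19.5, 13.25, 15.3 and 16.0 CPM and was the single gene of the 35 that was not lowest in c-FosDCh replicate 4. Gbp2, a GTPase that attacks microbes inside cells, was at 12.1, 16.6, 12.8 and 11.9, 13.1, 14.1 and 11.7 and 11.8, 9.53, 6.44 and 6.195 CPM, where the c-FosWT groups overlapped (-0.04 ± 0.23, edgeR adjusted p = 0.924).

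The marrow content of the libraries was then set against the 35 genes directly. The slope of a gene on the marrow score was fitted within groups, in 1 model with the group as a term, and gives the log2 change of the gene per unit of the score. All 35 slopes were positive (50% of all genes), with a median of 0.44, where the median over all genes was -7.08e-05. edgeR called 27 of the 35 positive and 0 negative, against 17.1% of all genes called positive and 10.7% called negative. The calls with the smallest p were Oas3 (0.85 ± 0.07, edgeR adjusted p = 1.71e-05), Cmpk2 (0.77 ± 0.07, edgeR adjusted p = 2.13e-05), Isg15 (0.69 ± 0.08, edgeR adjusted p = 9.87e-05), Rsad2 (0.72 ± 0.08, edgeR adjusted p = 0.000161), Trim30a (0.60 ± 0.08, edgeR adjusted p = 0.000274) and Oasl2 (0.77 ± 0.11, edgeR adjusted p = 0.000484). By role, the slope was called for 4 of 4 transcription factors, 3 of 4 sensors, 3 of 4 IFIT genes, 5 of 5 OAS genes, 9 of 11 other effectors, 2 of 2 genes of the ISG15 system, 1 of 3 of the PARP and Ifi35 group and 0 of 2 guanylate-binding proteins. Ddx58, Ifit3, Ifi44, Ifi27l2a, Parp9, Ifi35, Gbp2 and Gbp3 were not called, and Ifi35 had the flattest slope (0.03 ± 0.06, edgeR adjusted p = 0.688).

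**Figure D3:**
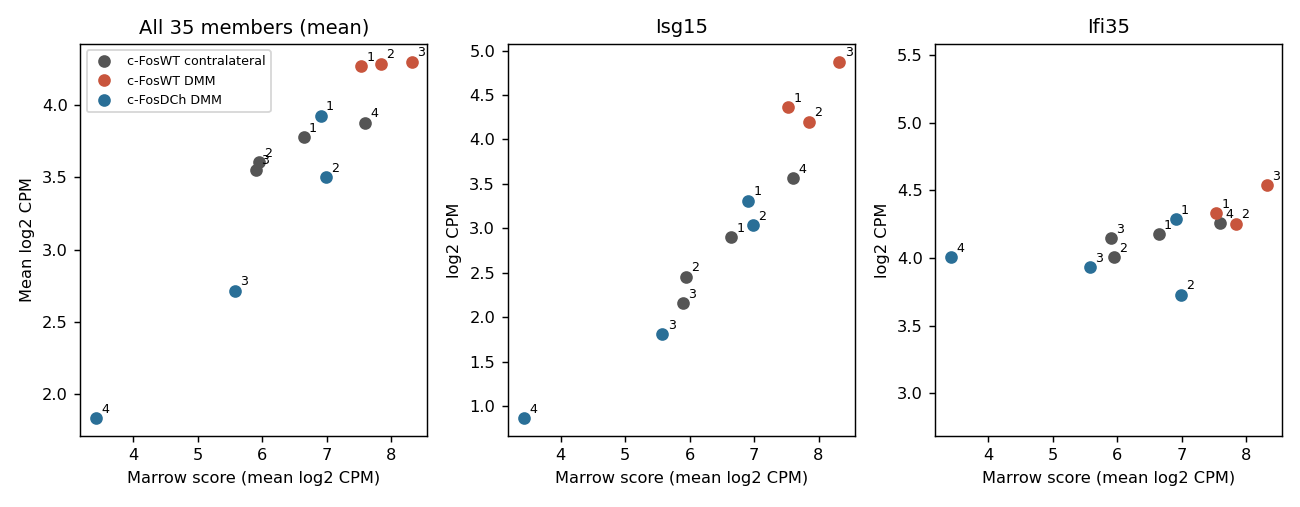
Mean log2 CPM of the 35 genes, and log2 CPM of Isg15 and Ifi35 (vertical axes), against the marrow score (horizontal axes, log2 CPM averaged over 37 marrow genes), 1 numbered point per library. Isg15 lies higher in libraries with a higher marrow score, Ifi35 has a slope near 0 (0.03), and c-FosDCh DMM replicate 4 lies far to the left at a score of 3.42.

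Much of this depended on the 2 libraries with the lowest scores. Leaving out replicates 3 and 4 of the c-FosDCh group, the median slope was 0.14, 27 of the 35 were positive, and 3 were called positive, beside 4.13% of all genes: Cmpk2 (0.69 ± 0.11, edgeR adjusted p = 0.00782), Isg15 (0.73 ± 0.13, edgeR adjusted p = 0.0126) and Oas3 (0.72 ± 0.13, edgeR adjusted p = 0.014). In the 7 c-FosWT libraries alone the median was 0.13 and the 3 called genes were again Cmpk2, Isg15 and Oas3, beside 4.27% of all genes called positive. Without c-FosDCh replicate 4 alone, 9 of the 35 were called positive, beside 10.4% of all genes. Isg15, Cmpk2, Oas3 and Rsad2 kept slopes between 0.67 and 0.73 without the 2 libraries, while that of Ifi27l2a turned to -0.41, of Ifit3 to -0.22 and of Gbp2 to -0.18. With erythroid genes alone as the score 11 of the 35 were called positive (13.6% of all genes), and with granulocyte genes alone 28 (16.5%). Other cell types moved with the score in all 11 libraries. There edgeR called the slope positive for 13 of 13 macrophage, 11 of 11 endothelial and 8 of 12 T and NK cell markers. It was called positive for 2 of 12 B cell and 1 of 7 fibroblast markers, and for 17.1% of all genes. Every marker of these cell types had a positive slope, with medians of 0.56, 0.40, 0.79, 0.76 and 0.23 in the same order. The B cell median thus lay above that of the macrophage markers, although few B cell markers were called. Which of these cells goes with the 35 genes was not tested.

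**Figure D4:**
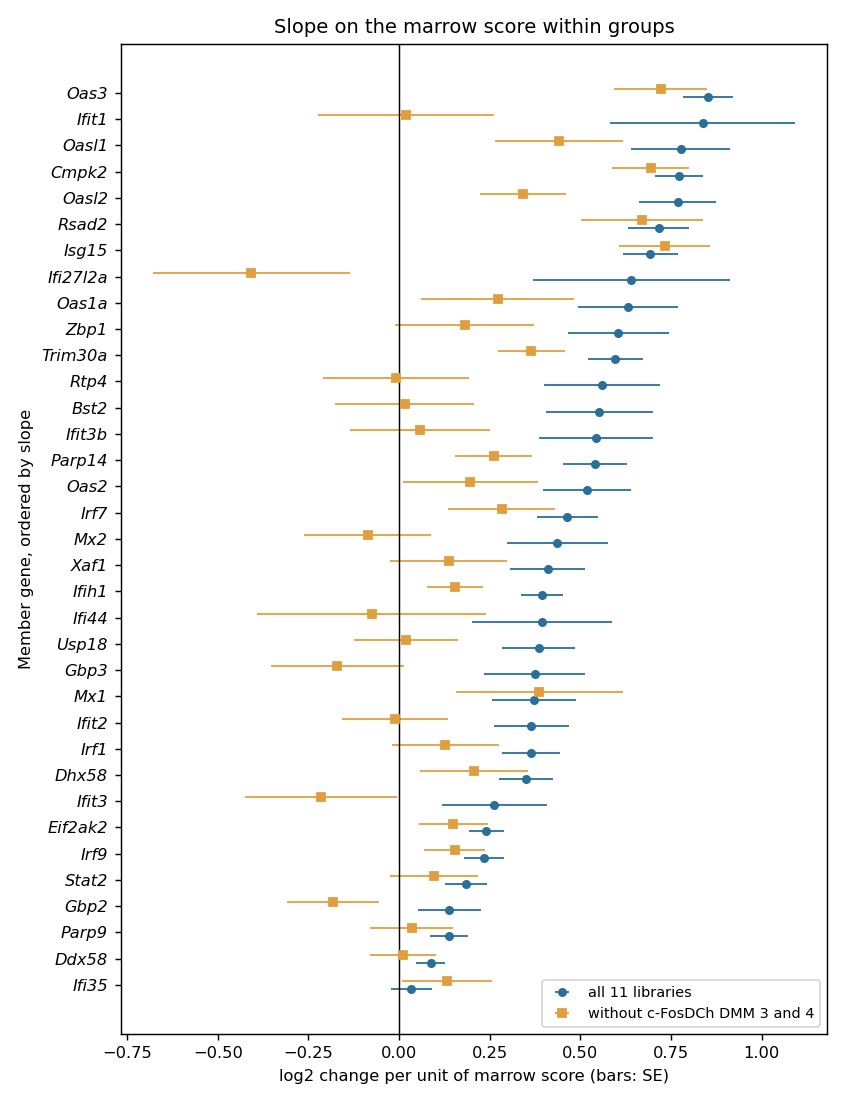
Slope of each of the 35 genes on the marrow score (horizontal axis, log2 change per unit of score, bars SE), ordered by slope, in all 11 libraries (blue) and without c-FosDCh DMM replicates 3 and 4 (orange). All 35 blue points are above 0; without the 2 libraries 8 orange points are below 0, and Isg15, Oas3 and Cmpk2 stay near 0.7.

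With the marrow score as a term of the model the group differences of the list were smaller. In that fit 16 of the 35 genes were higher and 19 lower in DMM than in contralateral c-FosWT knees, with a median of -0.03 beside -0.06 over all genes, of which 41.7% were higher. Isg15 and Rsad2 kept the largest positive values, 0.76 ± 0.19 and 0.77 ± 0.21 (edgeR adjusted p = 0.41 for both). Between the DMM groups, 31 of the 35 were lower in the libraries labelled c-FosDCh, with a median of -0.31 beside 0.03 over all genes, of which 53.4% had a higher level there. In that fit Rsad2 and Isg15 were at -0.95 ± 0.25 and -0.72 ± 0.22 (edgeR adjusted p = 0.407 for both). Against contralateral knees, 29 of the 35 were lower in the libraries labelled c-FosDCh, where 49.4% of all genes were higher. No gene of the 18125 was called by edgeR in any of these contrasts, and 2, 5 and 7 of the 35 had an unadjusted p under 0.05 in the 3 contrasts, beside 2061, 1862 and 1438 of all genes. The score did not make its own markers equal between the groups: with it in the model 19 of 19 erythroid genes were still higher in DMM than contralateral c-FosWT knees (median 0.63) and 18 of 18 granulocyte genes lower (-0.90), and between the DMM groups the signs were the reverse (-0.69 and 0.86). In place of the marrow score, a macrophage score gave medians over the 35 of 0.34 and -0.23 in the first 2 comparisons, and a cartilage score 0.19 and -0.88. Against contralateral knees the macrophage score turned the direction of the list, with 25 of the 35 higher and a median of 0.15, while the cartilage score gave -0.66. Since 2 of the 3 c-FosWT DMM libraries have a higher marrow score than any other library, score and group can be told apart only in part.

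**Figure D5:**
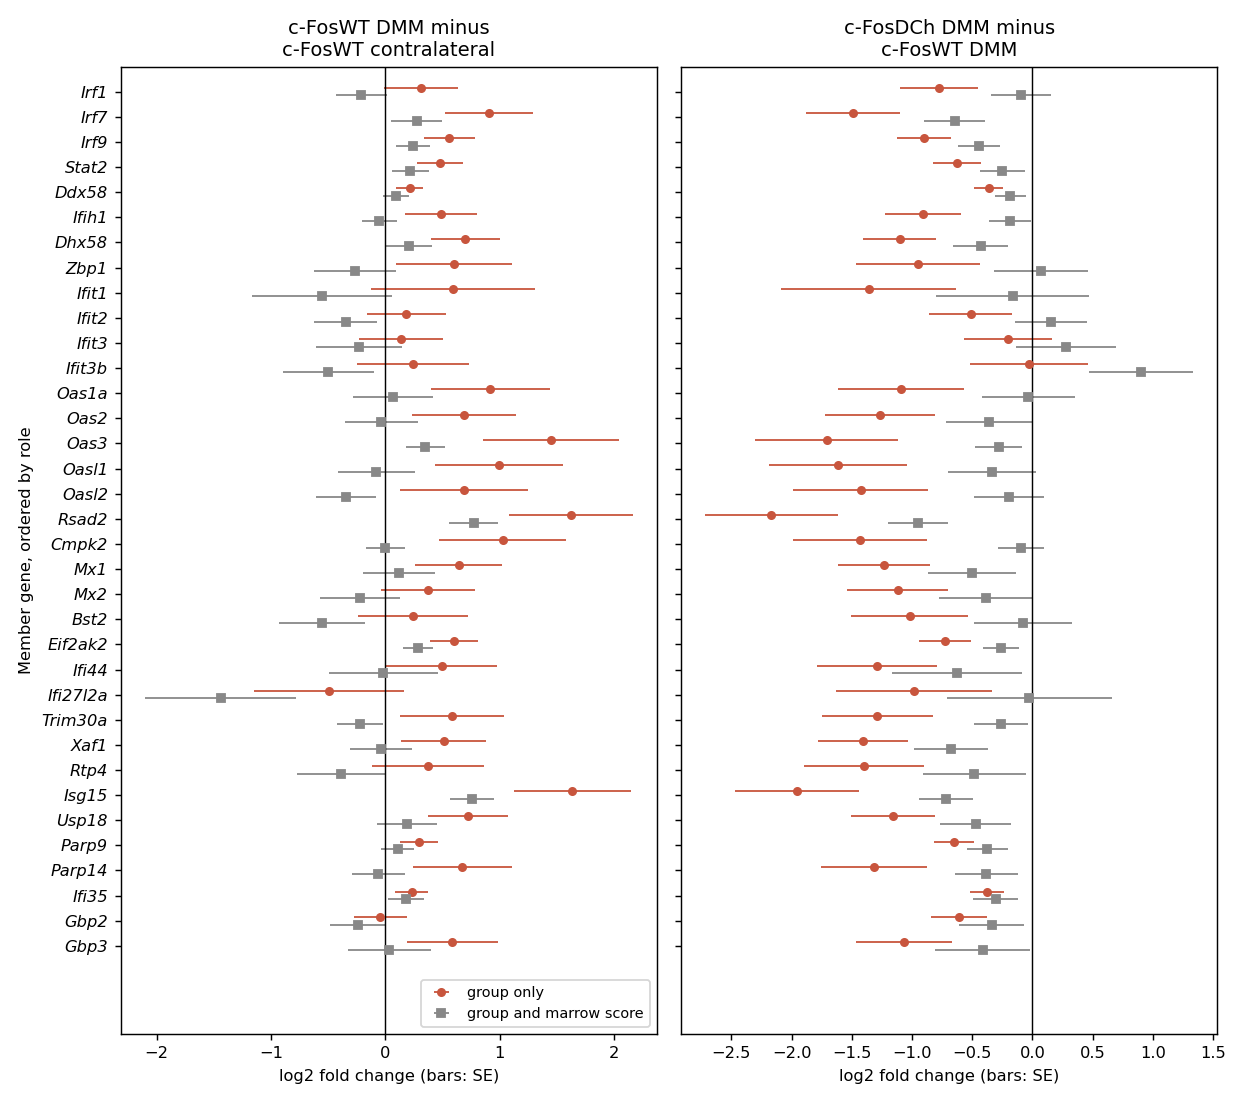
log2 fold change of each of the 35 genes (horizontal axes, bars SE) for c-FosWT DMM against contralateral knees (left) and c-FosDCh against c-FosWT among DMM knees (right), from the model with group alone (red circles) and with the marrow score added (grey squares). Grey points lie nearer 0 for most genes; Rsad2 moves from 1.62 to 0.77 on the left and from -2.17 to -0.95 on the right.

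The rest of the pathway was read from 79 further genes, 69 of them tested. The listed interferon genes had too few counts to test: of 10 ligand genes, 6 had no count in any library, 3 had 1 count and Ifng had 4. Reads that map to several places were set aside, so ligand genes with close copies may be undercounted. A count of 0 over all libraries allows up to 3 counts, or 0.0169 CPM, and covers counting error only. Of the 69 tested genes, 59 had a higher fitted level in DMM than contralateral c-FosWT knees (median 0.37), where 49.1% of all genes did, with a lowest edgeR adjusted p of 0.182. Between the DMM groups edgeR called 6 lower and 1 higher of the 69, where 3.79% of all genes were called lower and 10.6% higher. The 6 were Trim25, a ubiquitin ligase that activates the RNA sensors (-0.82 ± 0.21), Irgm1, a GTPase of cell-autonomous immunity (-0.95 ± 0.25), the ubiquitin ligase Herc6, which attaches Isg15 (-0.81 ± 0.14), Parp10 (-1.04 ± 0.31), Pml, the organiser of nuclear bodies (-0.98 ± 0.22), and the exonuclease Isg20 (-0.99 ± 0.27). The 1 higher gene was Socs3, an inhibitor of JAK kinases (0.59 ± 0.12), at 30.9, 35.8, 28.8 and 34.2 CPM in contralateral, 25.8, 21.8 and 25.9 CPM in c-FosWT DMM and 40.9, 34.8, 34.2 and 37.4 CPM in c-FosDCh DMM libraries. Its levels were lowest in the c-FosWT DMM libraries, the reverse of Isg15. The 3 listed negative regulators did not move together: between the DMM groups 2 had a higher fitted level and 1 a lower one. The lower one was at -0.48, without overlap between the groups, and was not called. The slope on the marrow score was called positive for 45 of the 69 and negative for 0, where 17.1% of all genes were called positive and 10.7% negative. The 45 include 6 of 6 receptors, 4 of 7 signal transducers, 6 of 11 upstream sensors and adaptors, 8 of 8 genes of antigen presentation and 0 of 3 negative regulators. The receptor chain Ifnar1 had a slope of 0.11 ± 0.03 and Ifngr1 of 0.31 ± 0.05, against 0.74 ± 0.11 for Irf8, a factor of myeloid cells (edgeR adjusted p = 0.0296, 0.000666 and 0.000877). The slopes of these further genes come from all 11 libraries, and values without c-FosDCh replicates 3 and 4 are not given. Cxcl10, a chemokine induced by interferon gamma, was at 0.0794 to 2.34 CPM and was not called in any of these tests.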

How the data were processed

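Each library has 1 deposited table of unnormalized gene counts in STAR's layout, of which column 2 was used. Per the submitters' processing notes the tools of the authors included STAR 2.6.1a, bcl2fastq 2.19.1.403, DESeq2 1.22.2 and RSEM, and the build was GRCm38; per the labels' protocols the poly(A) libraries were directional and read single-end. Neither the annotation release nor the strand setting is given in the sources that were used. Symbols and positions came from GENCODE M21 (GRCm38), matched by identifier for 55240 of 55421 genes. Reads outside genes stayed out of library sizes, and 33.08 to 43.16% of the reads in a table were gene counts. Counts of genes with close copies or an antisense partner are uncertain. No pair of libraries in a group agreed within sampling noise (lowest chi-square per degree of freedom 31.03).

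The main test was edgeR 4.0.16 in R 4.3.3 (filterByExpr, TMM scaling, robust quasi-likelihood fit of all 11 libraries, two-sided tests), with Benjamini-Hochberg adjustment over 18125 genes and a common biological coefficient of variation of 0.315. The SE is the size of the unshrunken log2 coefficient divided by the square root of F. For log2 CPM a prior count of 2 was added, and RPKM divides by exon length. The marrow score averages log2 CPM over 37 of 38 listed erythroid and granulocyte genes. Alternatives were DESeq2 1.42.0, limma-voom (limma 3.58.1), other scaling and filters, covariates, and left-out libraries. Before use the fits were run on simulated counts, to check that known differences and slopes were recovered on average. The simulated counts had the same spread for every gene and less than these data, so error rates for these libraries were not tested. Figures were drawn with matplotlib 3.10.9.

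The members, the gene lists and the tests were chosen with earlier results of these data known. Named genes were 16 fixed members, the called members with the smallest p (up to 6 per test), the 2 smallest p per test, and for the other pathway genes up to 3 called per role and test and 5 fixed ones, of which 1 is not reported here. Of these other genes all 7 called between the DMM groups are named, 2 more than the rule, and most of those called for the slope are given as counts. Members Dhx58, Eif2ak2, Ddx58, Ifi35 and Mx2 are named outside this rule, chosen after their values were seen. The c-FosDCh libraries were numbered in accession order, because 2 labels carry the same number. Titles give the animal of each library, so 3 pairs of knees come from 1 animal each; deviations from the group means correlated at -0.167, -0.177 and 0.254 within these pairs. The animal number of c-FosDCh replicate 4, EWAG-02126, lies apart from those of the other libraries, EWAG-02722 to EWAG-02731. Whether this bears on its levels was not tested.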

Additional observations from a re-analysis of the deposited data

How the results depend on the processing

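Between DMM and contralateral c-FosWT knees, 0 of the 35 genes and 0 of all genes were called with each library left out in turn (0 to 0) and with the animal as replicate block over the 3 pairs, where Isg15 was at 1.51 and Rsad2 at 1.53; DESeq2 called 2 of the 35 and 902 of all. Between the DMM groups the 8 called members and 2616 called genes became 26 and 5358 with DESeq2, 24 of the 35 with limma-voom, and 4 and 1443 with no filter on low counts. They became 0 and 0 with a marrow, skeletal muscle, cartilage or macrophage score as covariate, with only the 2 groups compared in the fit, and without c-FosDCh replicates 3 and 4; the cause was not tested. The median over the 35 was -1.17 with the muscle score and -1.10 with only the 2 groups, near the -1.10 of all libraries, but -0.88, -0.31 and -0.23 with the cartilage, marrow and macrophage scores and -0.57 without the 2 libraries. With 1 library left out the members called ranged from 0 to 31 and the genes from 0 to 4626. Against contralateral knees the libraries labelled c-FosDCh had 41 called genes with DESeq2 and 0 to 1 with 1 library left out. For the marrow slope the 27 members and 5048 genes became 3 and 853 without c-FosDCh replicates 3 and 4, and 3 and 816 in c-FosWT libraries alone; they ranged from 9 to 28 and 2989 to 5096 with 1 library left out. Erythroid genes alone gave 11 members, and no group term gave 9033 genes. The cartilage and macrophage scores, the 2 libraries left out together and the c-FosWT libraries alone were added after seeing the data. Scaling by DESeq2 size factors or by library totals left 8 to 10 members called between the DMM groups and 27 to 30 for the slope.
Some named members changed sign. Between the c-FosWT knees, with the marrow score, Irf1 was at -0.21, Ifit1 at -0.55, Ifit3 at -0.23, Ifit3b at -0.50, Oasl2 at -0.35, Bst2 at -0.55 and Zbp1 at -0.26; with the cartilage score Irf1 was at -0.22, Bst2 at -0.16 and Zbp1 at -0.042; with the macrophage score Bst2 was at -0.0043. With 1 library left out Gbp2 ranged from -0.095 to 0.095 and Ifit3 from -0.055 to 0.29. Between the DMM groups, Ifit3, Ifit3b and Zbp1 were at 0.28, 0.90 and 0.070 with the marrow score; Ifit3, Ifit3b, Zbp1 and Ifi27l2a at 0.32, 0.85, 0.16 and 0.23 with the macrophage score; Ifit3b at 0.024 with the cartilage score; and Ifit3 and Ifit3b at 0.069 and 0.42 without c-FosDCh replicates 3 and 4, and from -0.42 to 0.048 and -0.37 to 0.30 with 1 library left out. Against contralateral knees, Isg15 was at 0.039 with the marrow score, Isg15, Irf7 and Rsad2 at 0.59, 0.10 and 0.42 with the macrophage score, Isg15 and Rsad2 at 0.32 and 0.059 without the 2 libraries, and Isg15 from -0.70 to 0.0099 with 1 left out. The marrow slope of Ifit3, Ifi27l2a and Gbp2 was -0.22, -0.41 and -0.18 without the 2 libraries and -0.23, -0.42 and -0.20 in c-FosWT libraries alone, and that of Ifit3 ranged from -0.12 to 0.35 with 1 left out. Genes with few counts, such as Ifi44 with 477 in all, limit what the depth can show.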

Other observations

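Plasmacytoid dendritic cells are known as strong producers of type I interferon. The 4 markers listed for them, of which Klk1 and Ccr9 were at 0 counts in at least 1 library, summed to 10.3 to 18.7 CPM in contralateral, 16.3 to 25.7 CPM in c-FosWT DMM and 1.35 to 17 CPM in c-FosDCh DMM libraries, and edgeR called the slope on the marrow score positive for 3 of them. Genes of antigen presentation are induced by interferon gamma, and the slope was called positive for all 8 that were listed. Over all genes 17.1% were called positive. These slopes and those of the plasmacytoid markers come from all 11 libraries. For these genes slopes without c-FosDCh replicates 3 and 4 are not given. Psmb8, a subunit of the immunoproteasome, was at 32.4, 21.8, 28.2 and 40.3 CPM in contralateral, 32.1, 47.6 and 58.2 CPM in c-FosWT DMM and 39.9, 31.8, 9.51 and 2.86 CPM in c-FosDCh DMM libraries. Its slope on the marrow score was 0.92 ± 0.12 (edgeR adjusted p = 0.000299), the steepest of the 8 genes in that list. B2m, the light chain of class I molecules, was at 302, 231, 256 and 327 CPM, 344, 368 and 285 CPM, and 229, 214, 133 and 63.6 CPM in the same order. In both genes the c-FosWT groups overlapped, and c-FosDCh replicates 3 and 4 were the lowest libraries. The lambda interferon receptor chain Ifnlr1 had the steepest slope of the 6 receptor genes in all 11 libraries, 1.08 ± 0.12 (edgeR adjusted p = 0.000143). The 14 skeletal muscle genes summed to 136 to 16700, 595 to 26300 and 226 to 5250 CPM in the 3 groups, and their slope was called for 0 of 14.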
